A study of Mus musculus with 147 samples.

Results

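The comparison covers male germ cells of wild-type mouse embryos at E16.5 against E15.5 (E, embryonic day). It falls at a time when most, though at E15.5 not all, germ cells of the fetal testis have entered mitotic arrest. Its members are the cells whose deposited names give wild type (WT), the BVSC gate and one of these ages, with more than 2000 detected genes and 10000 to 1000000 transcripts. They were 378 of the 384 such cells in the table, and 378 of the 12692 cells of the whole series within the same limits. Each age had 2 replicate pools, of 93 and 94 cells at E15.5 and of 95 and 96 cells at E16.5. Each pool was 1 library, so library and age cannot be told apart.

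All embryos came from C57BL/6 females mated with males homozygous for the transgenes Blimp1-mVenus and Stella-ECFP (BVSC), which label germ cells at both ages. The Blimp1 reporter fades from E14.5, and cells with Stella-ECFP alone were then sorted as germ cells. The gate therefore rests on a reporter of Dppa3 (Stella), whose own transcript was lower in both E16.5 pools. Gonads were divided into 3 segments by their position relative to the mesonephros. Messenger RNA was measured by a modified STRT-seq protocol, which counts each molecule once through a unique molecular identifier (UMI), and the UMIs of all cells of a pool were summed, since cells of a pool are not replicates. In such sums, fewer expressing cells and less RNA per cell cannot be told apart without the single-cell values given further on.

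Male germ cells stop dividing in the fetal testis and stay arrested as prospermatogonia until after birth. In this period they shut down the pluripotency genes they share with embryonic stem cells and lay down new DNA methylation, with Dnmt3a, its cofactor Dnmt3l and the piRNA pathway. Pericentromeric heterochromatin of the mouse is built of the major satellite, a tandem repeat that repressive chromatin normally keeps at a low level of transcription.

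The pools held 22277443 to 31293766 UMIs, with a median of 244935 to 325602 UMIs per cell. After thinning to 50000 UMIs per cell, a median of 6893 and 6786 genes were detected in the cells of the E15.5 pools and 7718.5 and 7716 in those of the E16.5 pools. The germ cell markers Ddx4, Dazl and Dppa3 summed to 1114 to 2407 CPM (counts per 1000000 UMIs of the pool) in the 4 pools, against 85.6 and 95.9 CPM in the BVSC-negative cells of E15.5 and E16.5. Summed markers of several other cell types were higher in both E16.5 pools than in both E15.5 pools: blood at 124 and 157 against 61.8 and 50.8 CPM, and interstitial and peritubular at 166 and 87.5 against 60.4 and 21.3 CPM. Macrophage markers were highest in E16.5 replicate 2, at 88.5 CPM against 18.3 to 46.0, with C1qa and C1qb at 0 in both E15.5 pools and at 11.4 and 11.6 CPM there. E16.5 replicate 1 stood apart in Leydig and Sertoli cell markers. Its 5 Leydig cell markers summed to 491 CPM, against 19.8 to 130 CPM in the other 3 pools, and its 11 Sertoli cell markers to 180 CPM, against 34.8 to 48.5 CPM. In that pool 59 of 95 cells had more UMIs of the 3 germ cell markers than of all somatic and blood markers, against 91 to 93 cells in each of the other pools. Such a count also falls when Dppa3 is lower, as at E16.5. The somatic set includes Egfl7, Flt1 and Cd68, each higher in both E16.5 BVSC pools than in BVSC-negative cells of that age. The count is therefore not a count of germ cells. The comparison was also fitted on only the cells with more germ cell marker UMIs, with counts given at the end. Beyond that fit, the part of somatic cells or their RNA in the results was not tested. The 4 libraries used the same 96 cell barcodes.

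Transcripts of a tandem repeat and the gene Pvalb were higher at E16.5. Of 20034 genes in edgeR's quasi-likelihood test, 9 (0.0449%) rose and 0 (0%) fell at a false discovery rate (FDR) of 0.05. They are the predicted genes Gm10717, Gm10719, Gm10722, Gm10800, Gm10801, Gm11168, Gm21738 and Gm26870, and Pvalb, which encodes the calcium-binding protein parvalbumin. The predicted genes rose between 22.1-fold (Gm10800) and 65.8-fold (Gm10722). At an unadjusted p under 0.05 edgeR gave 2478 genes higher (12.4%) and 2306 lower (11.5%), and DESeq2, with an FDR of 0.05, called 1444 higher (6.9%) and 1273 lower (6.08%). DESeq2 also called all 9.

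Gm26870 lies on chromosome 9 of mm10 from 3000282 to 3038313 on the minus strand, as a lincRNA that spans Gm10722, Gm11168, Gm10719 and Gm10717, annotated as protein-coding on the plus strand. Gm10801 (98662237 to 98664083) and Gm10800 (98666547 to 98667301) are neighbours on chromosome 2, and Gm21738 lies on chromosome 14 from 19415857 to 19418930. Their reference transcripts are repeats: the longest one of each gene matched itself best when shifted by 225 to 237 bases, with 52.7% (Gm10801) to 78.3% (Gm26870) identity. The shift was 234 bases, the known unit length of the major satellite, in 5 of them. Of their 31-base words, 36.7% (Gm10801) to 90.8% (Gm10719) also occurred in another of the 8 genes on either strand, and 26 words occurred in all 8. Reads can be divided among such copies and, where strand is not used, among overlapping genes, so the split between the 8 genes is uncertain. The stretch of 234 bases richest in shared words is shown for 3 of them because the called difference lies in this repeat, with capitals for bases inside 31-base words held by at least 6 of the 8 genes.
Gm10800, bases 1 to 234 of its transcript: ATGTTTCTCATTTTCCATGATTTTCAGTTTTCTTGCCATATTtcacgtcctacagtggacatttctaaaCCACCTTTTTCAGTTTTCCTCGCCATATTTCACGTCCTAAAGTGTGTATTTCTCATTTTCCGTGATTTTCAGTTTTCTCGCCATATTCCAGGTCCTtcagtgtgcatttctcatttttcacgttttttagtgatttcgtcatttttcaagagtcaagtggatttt
Gm26870, bases 523 to 756 of its transcript: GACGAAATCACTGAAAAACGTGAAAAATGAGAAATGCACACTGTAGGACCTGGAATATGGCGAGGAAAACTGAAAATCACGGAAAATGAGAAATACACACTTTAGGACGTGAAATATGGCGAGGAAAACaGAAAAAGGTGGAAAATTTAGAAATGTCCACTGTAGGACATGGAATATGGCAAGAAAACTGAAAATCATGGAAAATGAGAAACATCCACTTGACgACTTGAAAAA
Gm10722, bases 345 to 578 of its transcript: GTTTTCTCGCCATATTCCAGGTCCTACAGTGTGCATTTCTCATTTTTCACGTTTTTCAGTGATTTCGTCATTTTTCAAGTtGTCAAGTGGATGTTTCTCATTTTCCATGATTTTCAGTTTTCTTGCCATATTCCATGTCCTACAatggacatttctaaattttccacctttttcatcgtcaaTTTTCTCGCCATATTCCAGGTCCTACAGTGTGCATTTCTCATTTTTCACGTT

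The shared words covered 232 of the 234 bases shown for Gm26870, 195 for Gm10722 and 138 for Gm10800.

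Gm10800, the most abundant of the family, was at 17.54 and 25.4 normalised CPM in the E15.5 pools and at 487 and 463 in the E16.5 pools (CPM scaled by edgeR's TMM factors). On the log2 scale it rose by 4.47 ± 0.26 (SE; edgeR, adjusted p = 0.00138). Gm26870 was at 2.12 and 2.49 normalised CPM at E15.5 and at 109 and 94.0 at E16.5, a rise of 5.47 ± 0.29 on the log2 scale (SE; edgeR, adjusted p = 0.00136). Both E16.5 pools lay far above both E15.5 pools, and the pools of an age lay close together. Gm10722 was at 1.42 and 1.148 normalised CPM at E15.5 and at 89.7 and 81.4 at E16.5 (log2 fold change 6.04). Gm21738 was at 2.12 and 2.58 against 92.1 and 83.8, and Gm10801 at 3.16 and 3.54 against 103 and 95.5. The less abundant Gm10717, Gm10719 and Gm11168 spanned 0.474 to 1.20 normalised CPM at E15.5 and 24.7 to 35.6 at E16.5. Another 5 genes of the table, Gm10715, Gm10718, Gm10720, Gm10721 and Gm17535, hold a 31-base word of the family. All 5 were higher in both E16.5 pools, 4 with an unadjusted p under 0.05, and none passed the FDR (smallest adjusted p = 0.0720, Gm10718, edgeR).

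Pvalb, on chromosome 15 from 78191114 to 78206400, had 0 UMIs in both E15.5 pools and was at 37.1 and 18.3 normalised CPM at E16.5. Against a floor of 3 UMIs over the E15.5 group it was at least 537-fold higher (adjusted p = 0.0257, edgeR). Its 2 RefSeq promoters (GRCm38.p6, 300 bases each) held none of the motifs CACGTG (E-box), TTTCCCGC or TTTGGCGC (E2F), TGACGTCA (CRE) and CCAAT on either strand. These were found in 7.15%, 1.56%, 1.79% and 37.4% of the 32851 promoters of the table.

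**Figure D1:**
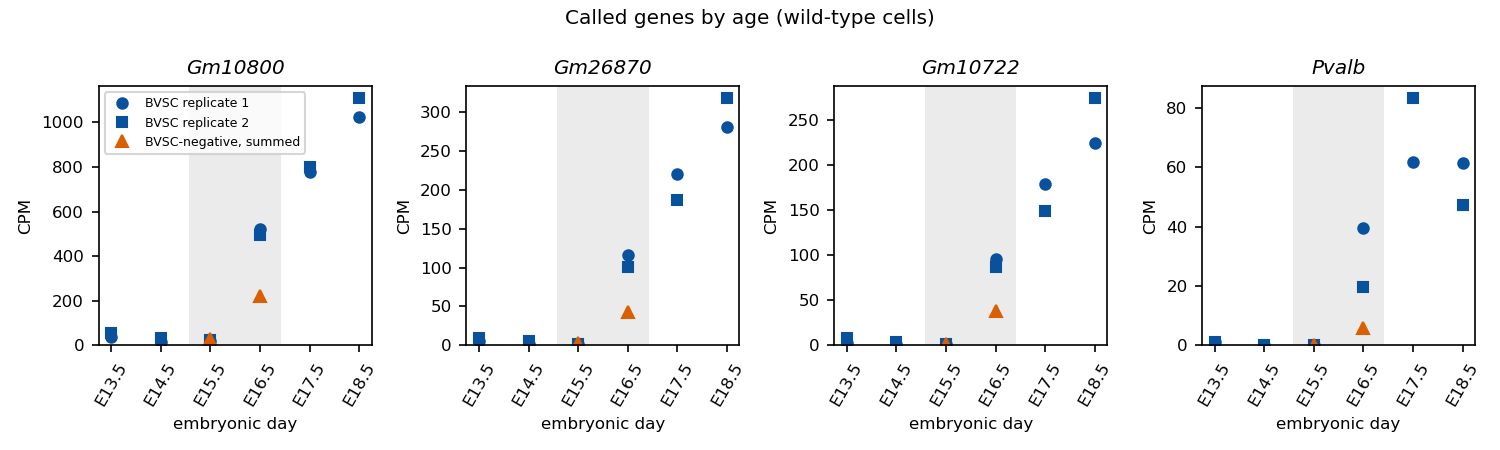
CPM (linear axes) of Gm10800, Gm26870, Gm10722 and Pvalb against embryonic day in wild-type cells, with circles and squares for the BVSC replicates 1 and 2, triangles for BVSC-negative cells summed over replicates, and a grey band over the ages compared. Gm10800 stands at 14.04 to 52.7 CPM from E13.5 to E15.5 and at 494 to 1109 CPM from E16.5 to E18.5.

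Across the ages, given as plain CPM with no test, the step stood between E15.5 and E16.5. Gm10800 was at 36.7 and 52.7 CPM at E13.5, 14.04 and 31.96 at E14.5, 17.7 and 22.0 at E15.5, and 520 and 494 at E16.5. It was at 778 and 800 CPM at E17.5 and at 1026 and 1109 at E18.5. Pvalb was at 0 to 1.12 CPM up to E15.5 and at 19.5 to 83.3 CPM afterwards. At E17.5 and E18.5, 9 to 43 of the 70 to 72 cells of a pool had more germ cell than somatic marker UMIs. Dppa3, one of the germ cell markers in that count, was at 60.1 to 80.5 CPM at these ages.

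BVSC-negative cells of the gonads also held more of the repeat at E16.5. Summed over 92 and 96 cells, Gm10800 was at 26.5 CPM at E15.5 and 222 at E16.5, and Gm26870 at 43.0 CPM at E16.5. At E16.5 the negative cells held 43.9% of the BVSC level of Gm10800, 20.2% of that of Pvalb and 8.25% of that of the germ cell marker Ddx4. A rise in negative cells was not particular to the repeat. Dnmt3l was at 2.61 CPM at E15.5 and 36.6 at E16.5, and Kdm1b at 7.02 and 38.6. Ddx4 was at 27.9 and 38.8 CPM, and Dppa3 at 8.27 and 5.63. The part of age, library and carry-over between cells in these values was not tested.

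In single cells UMIs of the repeat were detected widely at E16.5, but their level was uneven. The Leydig cell marker Cyp11a1 was also detected in 100% of thinned cells of E16.5 replicate 1. The part of carry-over between cells of a library in these shares was not tested. After thinning to 50000 UMIs, Gm10800 had a UMI in 20.9% and 23.3% of cells of the E15.5 pools and in 97.8% and 98.9% of those of the E16.5 pools. The 95% Wilson intervals, for counting error only, were 13.8% to 30.3%, 15.8% to 33.1%, 92.3% to 99.4% and 94.0% to 99.8%. Without thinning the shares were 33.3% and 47.9% at E15.5 and 100% in both E16.5 pools. In BVSC-negative cells, at medians of 204082 and 148802 UMIs per cell before thinning, the thinned shares were 32.6% and 84.4%. The top 24 cells held 83.6% and 86.6% of the UMIs of the 8 genes in the E16.5 pools. The summed level there ran from 32.1 to 10035 CPM in replicate 1 and from 34.5 to 9129 CPM in replicate 2. The E15.5 pools were uneven too, with 97.2% and 94.9% of these UMIs in the top 24 cells. Their summed level ran from 0 to 504 and from 0 to 1105 CPM. Pvalb had a UMI in 56.7% and 34.4% of thinned cells at E16.5 and in 0 of 91 and 0 of 90 at E15.5, where 3 cells of the total would be 3.30% and 3.33% and the Wilson upper limits are 4.05% and 4.09%. These limits hold for cells with a UMI at this depth, not for cells that express the gene.

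**Figure D2:**
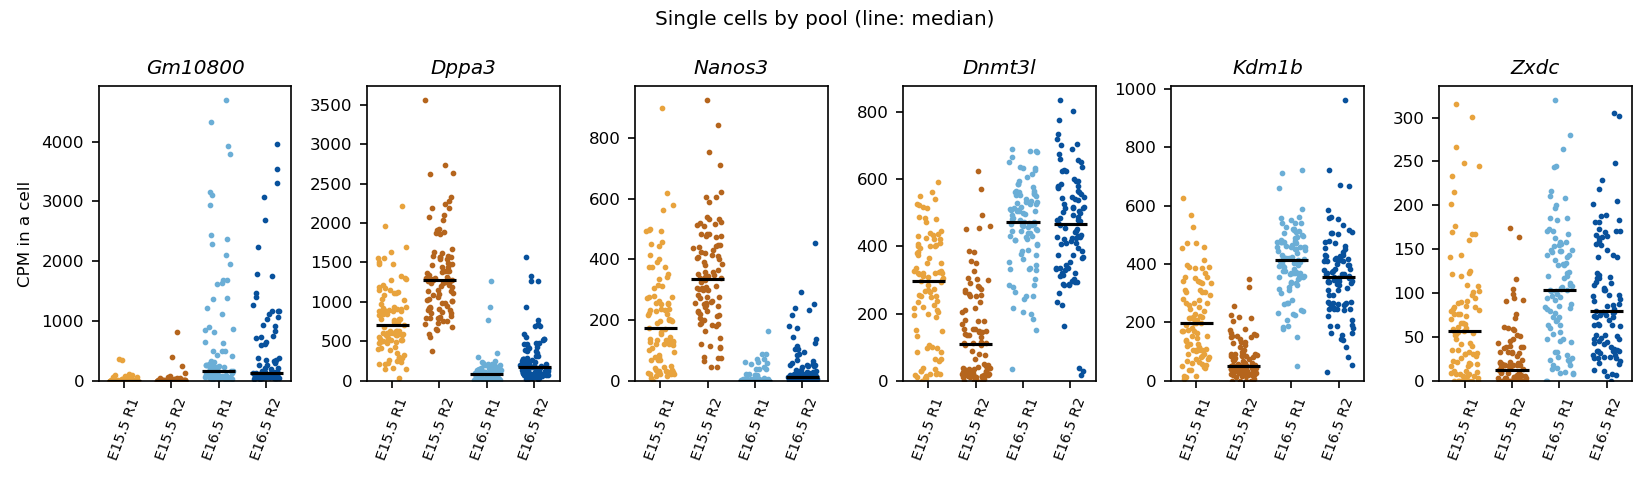
CPM in each cell (linear axes) of Gm10800, Dppa3, Nanos3, Dnmt3l, Kdm1b and Zxdc in the 4 pools, with 1 point per cell and a line at the pool's median. The median cell was at 0 CPM of Gm10800 in both E15.5 pools and at 166 and 128 CPM in the E16.5 pools, with single cells up to 4694 CPM.

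Beyond the 9 genes, the spread between the E15.5 pools was wide. The standard deviation of the log2 ratio of the 2 pools was 0.47 at E15.5 and 0.33 at E16.5, over the 6070 genes whose mean log2 CPM reached 5 (0.5 added before the log). Among these, 158 genes were at least 2-fold higher and 485 at least 2-fold lower at E16.5 with no overlap between the ages, and E15.5 replicate 1 lay nearer to E16.5 than replicate 2 in 151 and 464 of them. In normalised CPM, pools of the ages did not overlap for 34.1% (higher) and 27.3% (lower) of all genes tested, and for 13.9% and 51.9% of these abundant ones. For small differences this depends on the TMM factors, which were 1.01 and 0.865 at E15.5 and 1.07 in both E16.5 pools. The median log2 fold change was 0.11 over all genes and -0.27 over the abundant ones. No gene of the groups described from here on passed the FDR, so their values are given as levels. The smallest adjusted p of any gene lower at E16.5 was 0.0943 (edgeR).

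**Figure D3:**
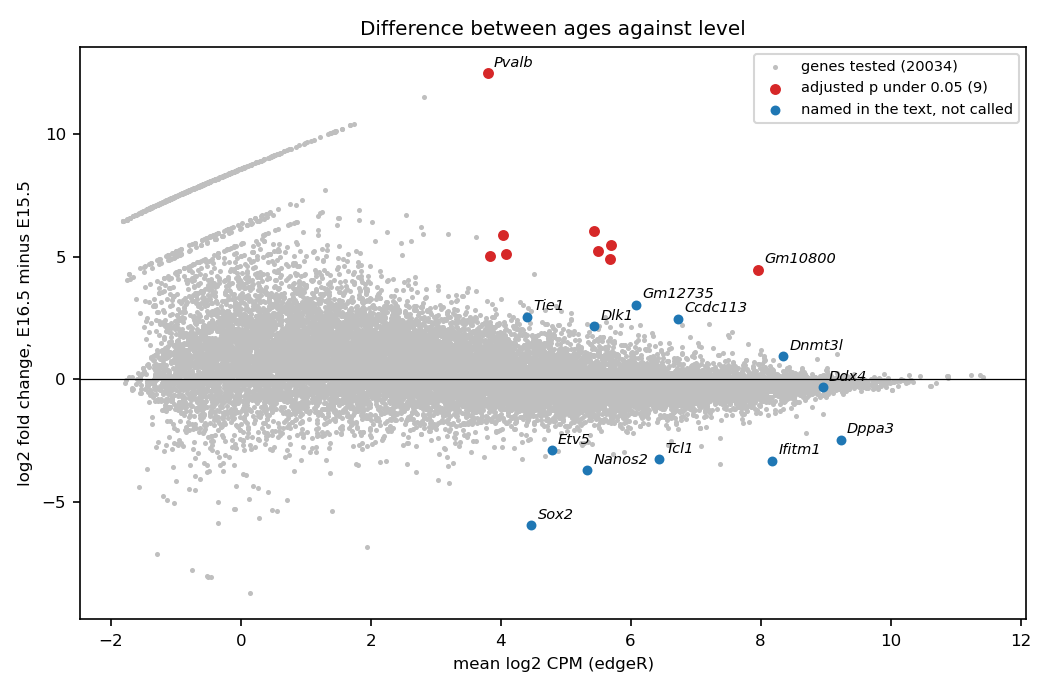
Log2 fold change (E16.5 minus E15.5) against mean log2 CPM for the 20034 genes tested, with the 9 called genes in red and some uncalled genes named in the text in blue. Gm10800, at 4.47, is the most abundant called gene, and Sox2, at -5.94, and Nanos2, at -3.69, lie far below 0 without passing the FDR.

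Genes of germ cell identity and pluripotency were mostly lower in the E16.5 pools. Of 17 pluripotency genes, 12 were lower (70.6%) and 1 higher (5.88%) with no overlap, with a median log2 fold change of -1.04. The share lower was 27.3% over all genes and 51.9% over abundant ones. DESeq2 called 8 of the 17 lower, against 6.08% of all genes it tested. Sox2, a core pluripotency factor, was at 28.7 and 58.3 normalised CPM at E15.5 and at 0.168 and 1.21 at E16.5. Dppa5a was at 433 and 930 against 117 and 181, and Nanog, another core factor, at 18.4 and 40.8 against 6.01 and 8.68. E15.5 replicate 2 was the highest pool for each of these, and the ages did not overlap. Pou5f1 was at 141 and 230 against 110 and 99.3.

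Of 16 germ cell identity genes, 11 were lower (68.75%) and 2 higher (12.5%) with no overlap, with a median of -0.39. The shares were 27.3% and 34.1% over all genes, and 51.9% and 13.9% over abundant ones. Nanos2, the RNA-binding protein of the early male programme, was at 38.4 and 111 normalised CPM at E15.5 and at 3.70 and 7.77 at E16.5 (log2 difference -3.69 ± 0.59, SE; edgeR, adjusted p = 0.0943). Its relative Nanos3 was at 203 and 405 against 11.7 and 44.4. Dppa3, whose reporter set the gate, was at 706 and 1330.4 against 117 and 255 (log2 fold change -2.45, adjusted p = 0.0943, edgeR). Ddx4, a germ cell RNA helicase, was at 465 and 639 against 437 and 445, and Dazl at 524 and 812 against 490 and 516. In plain CPM the ages overlapped for both genes. Ddx4 was then at 470 and 553 against 466 and 475, and Dazl at 529 and 703 against 523 and 551. The thinned share of cells with a Nanos2 UMI was 51.6% and 93.3% at E15.5 and 6.67% and 21.1% at E16.5, against 0 of 86 and 0 of 90 BVSC-negative cells.

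Genes of de novo DNA methylation were mostly higher. Of 9, 7 were higher (77.8%) and 1 lower (11.1%) with no overlap, with a median log2 fold change of 0.79, and DESeq2 called 3 higher. The share higher with no overlap was 34.1% over all genes and 13.9% over abundant ones, and DESeq2 called 6.9% of all genes higher. Dnmt3l was at 266 and 180 normalised CPM at E15.5 and at 433 and 420 at E16.5 (log2 difference 0.93 ± 0.23, SE; edgeR, adjusted p = 0.106). The histone demethylase Kdm1b was at 215 and 97.6 against 390 and 329, and Spocd1, a piRNA-directed methylation factor, at 271 and 157 against 397 and 342. Dnmt3a, the methyltransferase itself, was at 484 and 461 against 512 and 515. In single cells Dnmt3l had a median of 297 and 109 CPM in the E15.5 pools and of 472 and 467 CPM in the E16.5 pools. Of 6 genes of maintenance methylation and demethylation 2 were higher (33.3%) and 3 lower (50%, near the 51.9% of abundant genes). The demethylating enzyme Tet1 was at 65.7 and 115 normalised CPM against 20.2 and 28.2.

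**Figure D4:**
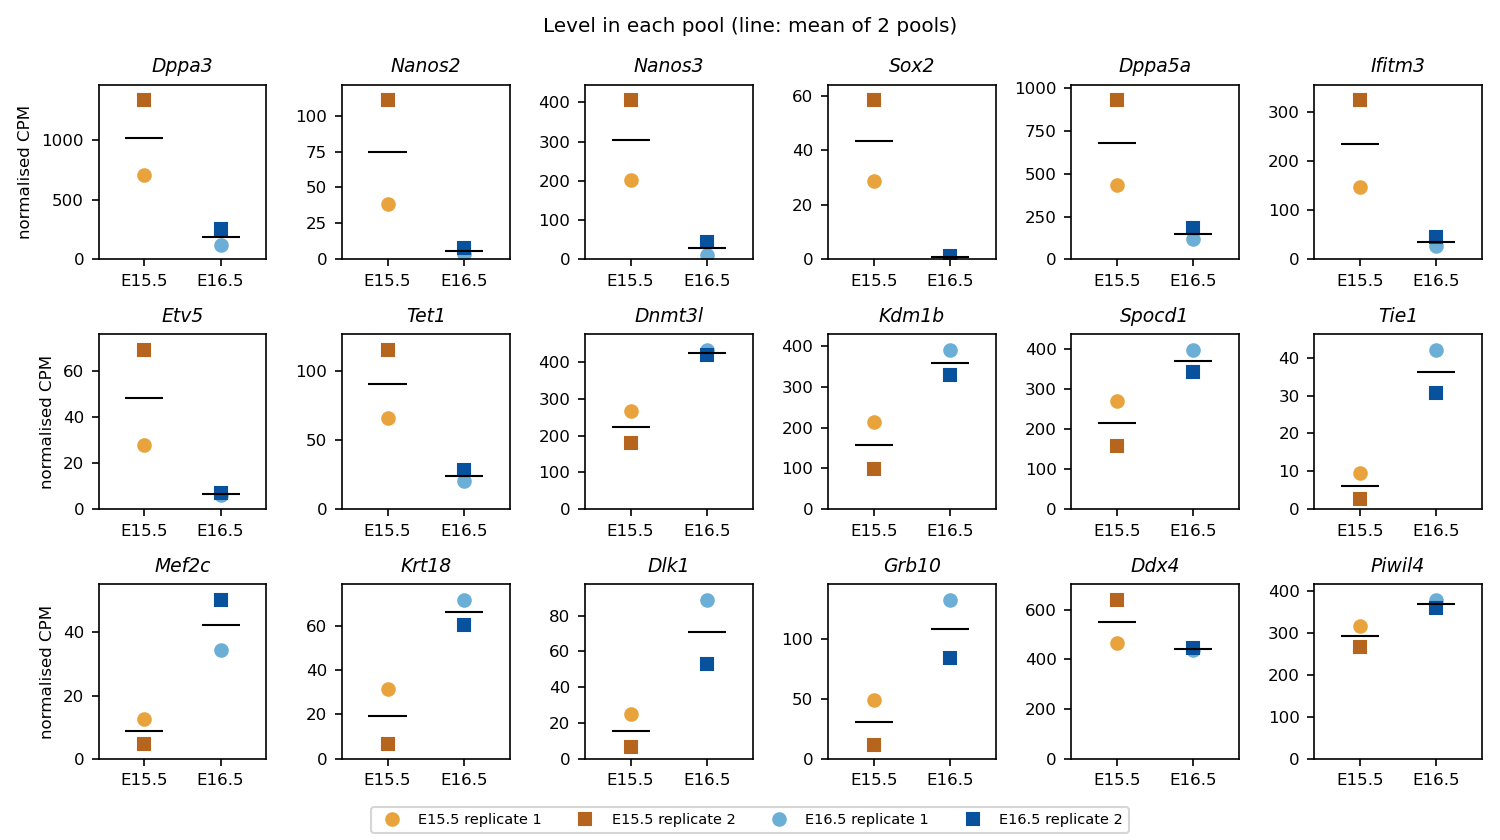
Normalised CPM (linear axes from 0) of 18 genes in each pool, with circles for replicate 1, squares for replicate 2 and a line at the mean of the 2 pools of an age. In normalised CPM the ages do not overlap for these genes, though in plain CPM they do for Ddx4. None of the genes passed the FDR, and E15.5 replicate 1 lies nearer to the E16.5 pools in most panels.

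Of 12 prospermatogonia markers, 8 were higher (66.7%) and 1 lower (8.33%) with no overlap (median 0.78). The study picked Tie1, Krt18 and Zxdc as such markers from cells of this same series, with prospermatogonia from E16.5 on. A rise of these genes at E16.5 is therefore partly given by that choice, and the list is not independent of these data. The share higher was 34.1% over all genes and 13.9% over abundant ones. Tie1, a receptor tyrosine kinase, was at 9.54 and 2.68 normalised CPM at E15.5 and at 42.0 and 30.6 at E16.5, and Krt18, a keratin, at 31.4 and 6.89 against 71.5 and 60.3. In BVSC-negative cells Krt18 was at 38.0 CPM at E15.5 and 135 CPM at E16.5, 193% of its BVSC level at that age, and the part of somatic RNA in its value was not tested. The 6 endothelial markers, of which Tie1 is not one, summed to 122 and 62.1 CPM at E15.5 and 211 and 173 CPM at E16.5. In BVSC-negative cells they summed to 103 CPM at E15.5 and 151 CPM at E16.5. Egfl7 was the highest of them in each pool, at 92.0 and 44.9 CPM at E15.5 and 153 and 127 CPM at E16.5. It was at 47.9 and 57.7 CPM in the negative cells of these ages. The part of endothelial cells in these values was not tested. Tspan8 was at 117 and 82.3 normalised CPM against 164 and 151, and Zxdc at 77.1 and 32.95 against 113 and 93.2. Of 23 spermatogonial factors, 6 were higher (26.1%) and 12 lower (52.2%, near the 51.9% of abundant genes), with a median of -0.53. Etv5, a transcription factor of the stem cell programme, was at 27.8 and 69.2 against 6.10 and 7.05, and Kit, the receptor of differentiating cells, at 25.6 and 12.7 against 51.9 and 39.0. Zbtb16 was at 1.11 and 2.25 against 4.84 and 4.47.

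Of 53 G2/M genes 39 were lower with no overlap (73.6%) and 3 higher (median -0.52), and of 43 G1/S genes 25 were lower (58.1%) and 2 higher (median -0.37). The shares over all genes and over abundant genes were 27.3% and 51.9%, and the G1/S share is near the latter. Cdk1, the mitotic kinase, was at 52.998 and 101 normalised CPM at E15.5 and at 17.7 and 28.2 at E16.5. The proliferation marker Mki67 was at 25.8 and 31.4 against 7.15 and 20.7. The Cdk inhibitor Cdkn1a was at 62.0 and 84.8 against 19.1 and 24.4, while Cdkn1b, another, was at 8.82 and 14.8 against 16.3 and 15.7.

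Among 28 imprinted genes 14 were higher (50%) and 7 lower (25%), with a median of 0.39. Over all genes 34.1% were higher and 27.3% lower with no overlap. Dlk1 was at 24.998 and 6.50 normalised CPM at E15.5 and at 88.7 and 52.7 at E16.5, and the noncoding RNA H19 at 37.1 and 40.0 against 11.5 and 10.3. In BVSC-negative cells of E16.5, Dlk1 stood at 505% of its BVSC level, and the part of somatic RNA in the Dlk1 value was not tested. Of 18 retinoic acid response genes 9 were higher (50%) and 3 lower (16.7%), with a median of 0.92. Of 66 oxidative phosphorylation genes 37 were lower (56.1%, near the 51.9% of abundant genes) and 0 higher (median -0.38). Of 60 cytosolic ribosomal proteins 11 were lower and 0 higher (median -0.16). Their share lower, 18.3%, was under the 27.3% over all genes and the 51.9% of abundant genes. The piRNA pathway (24 genes, 3 higher and 10 lower, median -0.10), meiotic genes (26, 7 and 8, -0.07) and cilium assembly (67, 22 and 17, 0.11) lay on both sides of 0. Their shares higher and lower were 12.5% and 41.7%, 26.9% and 30.8%, and 32.8% and 25.4%. The cilium shares are near those over all genes. Piwil4, the nuclear piRNA-binding protein, was at 318 and 267 against 379 and 360.

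Signalling and chromatin genes were mixed. The share lower with no overlap was 27.3% over all genes and 51.9% over abundant ones. Of 11 Nodal pathway genes 2 were higher (18.2%) and 5 lower (45.5%), with a median of -0.03. Among those lower was the Nodal inhibitor Lefty2, at 11.1 and 24.3 normalised CPM at E15.5 and 1.98 and 4.02 at E16.5. Of 21 Notch pathway genes 2 were higher (9.52%) and 8 lower (38.1%), with a median of -0.24. The Notch target Hey1 was at 25.8 and 35.9 against 12.4 and 11.9. Of 37 histone and chromatin regulators 3 were higher (8.11%) and 20 lower (54.1%, near the 51.9% of abundant genes), with a median of -0.29. Setdb1, a histone H3K9 methyltransferase, was at 66.4 and 64.2 against 27.7 and 31.6.

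In the series of ages, as plain CPM with no test, Dnmt3l was at 0 in both E13.5 pools, 35.7 and 17.8 at E14.5, 269 and 156 at E15.5, and 462 and 448 at E16.5. It was at 248 to 368 CPM at E17.5 and E18.5. Tie1 was at 0 to 0.541 CPM up to E14.5, at 9.65 and 2.32 at E15.5, at 44.8 and 32.6 at E16.5, and at 77.7 to 162 later. Nanos3 was at 92.7 to 351 CPM from E13.5 to E15.5 and at 4.94 to 47.4 CPM from E16.5 to E18.5. For Nanos3 the pools before and after the step did not overlap, and for Dnmt3l the highest pools were those of E16.5.

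**Figure D5:**
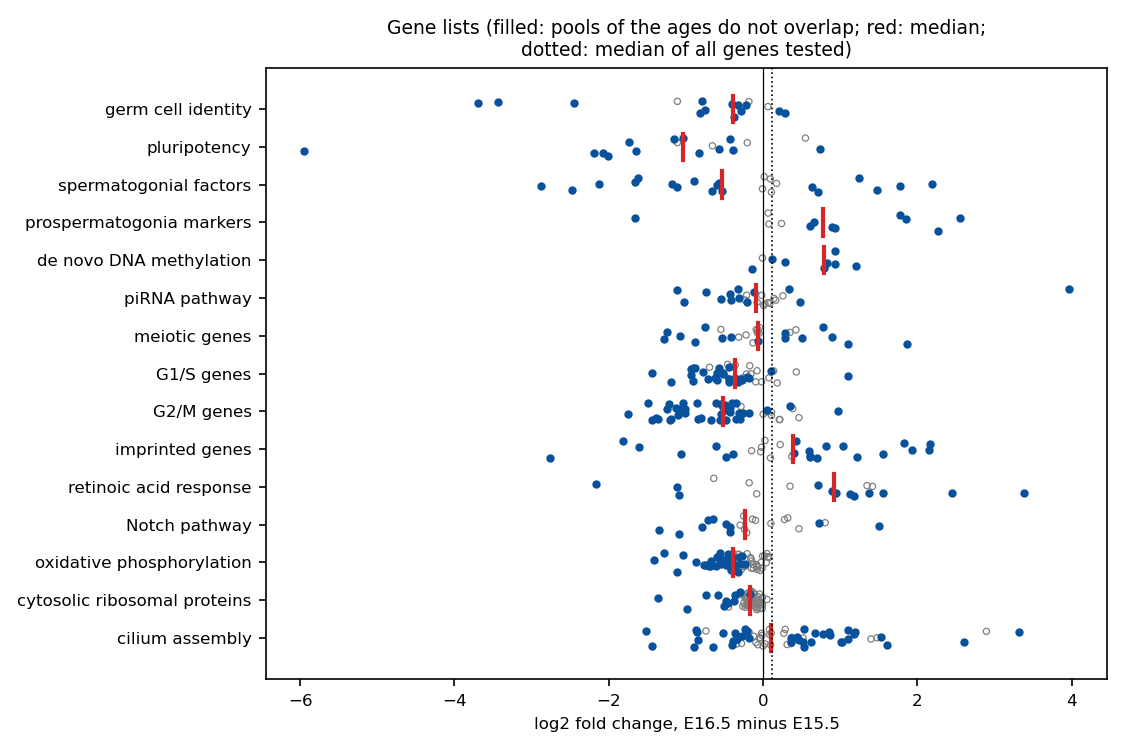
Log2 fold change (E16.5 minus E15.5) of each gene of 15 lists, filled where the pools of the ages do not overlap, with a red line at the list's median and a dotted line at the median of all genes tested (0.11). Pluripotency genes reach from -5.94 to 0.74 with a median of -1.04, and de novo methylation genes from -0.14 to 1.20 with a median of 0.79.

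The largest uncalled differences among the abundant genes, picked after their values were seen, included Tcl1, Ifitm1, Ifitm3, Gm12735 and Ccdc113. Tcl1 was at 94.998 and 217 normalised CPM at E15.5 and at 13.6 and 19.1 at E16.5. The membrane proteins Ifitm1 and Ifitm3 were at 314 and 735 against 36.1 and 69.4 and at 148 and 324 against 26.4 and 44.6. In the other direction Gm12735 was at 22.4 and 6.79 against 117 and 125, and Ccdc113 at 47.9 and 16.501 against 193 and 165.

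The comparison was repeated within the gonad segments. Of the 108 genes named or listed for naming, 39 were higher and 49 lower with no overlap in all 3 segments. None had opposite directions without overlap in different segments. Some of these genes were picked because their pools did not overlap, and the segments are parts of the same pools. The share over all genes was not computed by segment, so the counts are a description and no separate support. Gm10800 in the segment labelled D was at 9.76 and 3.29 CPM at E15.5 and at 675 and 481 at E16.5. Nanos2 there was at 30.9 and 103 against 7.57 and 0.395 CPM. Cyp11a1, the first enzyme of steroid synthesis and a Leydig cell marker, overlapped between the ages, at 10.2 and 73.0 normalised CPM at E15.5 and 181 and 14.3 at E16.5. In E16.5 replicate 1 all 95 cells had a Leydig marker UMI, and 5 cells held 46.4% of them.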

How the data were processed

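The authors made UMI counts per gene and cell with UMI-tools, STAR on mm10, featureCounts and UMI-tools again, after base calling with CASAVA 1.8 (per the labels and the study's methods), and the counts were deposited unnormalised. Up to 3 alignments per read were allowed before uniquely aligned reads were counted, which bears on repeats. How strand was used is not given in the sources used here. GEO's labels give no group for a sample, so age, genotype, gate, segment and replicate were read from the deposited cell names. The study's methods describe the replicates as independent biological ones, each from several pooled embryos or gonads, so p-values measure the spread between such pools and not between animals.

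Cells with more than 2000 genes and 10000 to 1000000 UMIs were kept and their UMIs summed per pool, giving 22277443 to 31293766 UMIs. Sums were compared by edgeR 4.0.16 (R 4.3.3; TMM, filterByExpr, quasi-likelihood F-test, Benjamini-Hochberg FDR 0.05 over 20034 genes), with DESeq2 1.42.0 as an alternative. In simulated counts the fit returned fold changes close to those put in but called few of the changed genes. An exact permutation test of 2 against 2 pools cannot go below p = 0.333. Doublets were not called. The members and gene lists were chosen with earlier results of these data known.

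Genes were named if called, with pools of the ages apart and the mean log2 CPM reaching 5 (up to 10 per direction; 5 met this), if on a list, or if on a fixed list of marker and programme genes. The other 4 called genes and the largest uncalled differences were chosen after their values were seen. The motif search was run on Pvalb although it lay under that level. Alternatives covered normalization, tool, low-count filter, replicate block, shared spread, thinning, cell filters, segments, thresholds and leaving out each pool. Transcripts were from GENCODE M21, promoters from RefSeq (76 of 108 named genes matched). Other columns of cells were not used for the test.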

Additional observations from a re-analysis of the deposited data

Results flagged for a closer look

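BVSC-negative cells of the gonads, which the comparison did not use, held the called transcripts at E16.5 above their E15.5 level. Summed over 96 cells, Gm10717 was at 12.1 CPM, Gm10719 at 9.46, Gm10722 at 38.2, Gm10800 at 222, Gm10801 at 45.1, Gm11168 at 9.28, Gm21738 at 41.3 and Gm26870 at 43.0 CPM. Pvalb was at 5.87 CPM there, against 0.0501 CPM in the 92 negative cells of E15.5. The ratio of E16.5 to E15.5 in negative cells was 8.39 for Gm10800. Replicates of the negative cells were not separated, so these values carry no replicate error.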

How the results depend on the processing

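The 9 genes were called at an FDR of 0.05 under every setting fitted on all segments, and 8, 8 and 5 of them within segments C, D and P. At an FDR of 0.01, 6 were called higher and 0 lower, without Gm10717, Gm10719 and Pvalb. The number of other calls depended strongly on the setting. Genes called higher and lower were 1444 and 1273 by DESeq2, 1542 and 1386 with no filter on low counts, 228 and 295 at a mean CPM of at least 5, 133 and 529 with the spread shared with E13.5, E14.5 and E18.5, and 217 and 303 with cells thinned to 50000 UMIs. They were 12 and 5 in cells with more germ cell than somatic marker UMIs, 12 and 41 within segment C, 10 and 3 within segment D, and 5 and 1 within segment P. Leaving out 1 pool gave 104 to 3990 higher and 127 to 2665 lower, the highest counts without E15.5 replicate 1, and a lone pool is then assumed to vary like the other age. With the replicate number as a block, 1608 and 1674 genes were called, but same-numbered pools shared only a number (correlation of their deviations 0.0763 over 20034 genes). An FDR of 0.10, chosen after seeing the data, gave 232 and 358. RLE and upper-quartile normalization gave 9 and 0, though the latter moved the median log2 fold change of all genes from 0.11 to 0.33. Cyp11a1 and Cyp17a1, with log2 fold changes of 1.24 and 2.16, turned to -0.15 and -0.16 within segment D and to -1.53 and -1.60 without E16.5 replicate 1, and ranged up to 3.25 and 9.54 without E15.5 replicate 2. Over named genes and settings, 1171 of 1820 values kept their direction and side of the threshold, 639 newly passed it, 6 no longer did and 4 reversed, and 31 shares of cells moved with the thinning depth. The causes were not tested. With 2 pools per age, 1 library each, a gene that missed the FDR is not shown to be equal.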
